A study of Mus musculus with 21 samples.

Results

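The calcium/calmodulin-dependent kinases and the phosphatase calcineurin read the same calcium signal and write opposite marks on their targets. When calcium enters a neuron it binds calmodulin, which switches on CaMKII (calcium/calmodulin-dependent kinase II), a large holoenzyme of dendritic spines that can phosphorylate itself and stay active, and a second cascade in which the kinases CaMKK1 and CaMKK2 activate CaMKIV in the nucleus. The same calcium and calmodulin activate calcineurin, a serine/threonine phosphatase with a catalytic A subunit and a calcium-binding B subunit. In the brain, CaMKII is best known for long-term potentiation and spatial memory, and calcineurin for long-term depression and for dephosphorylating NFAT transcription factors. The 10 genes described here were taken by name: the CaMKII subunit genes Camk2a, Camk2b, Camk2d and Camk2g, the cascade kinases Camk4, Camkk1 and Camkk2, the catalytic calcineurin genes Ppp3ca and Ppp3cb, and Ppp3r1, which encodes the regulatory B subunit. All 10 were found among the 16318 genes of the count table, and all 10 passed the filter on low counts that left 16303 genes to test.

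RNA was sequenced from the brains of 21 SAMP8 mice, an inbred strain that ages early and develops memory deficits without an introduced transgene. Of these, 12 mice had received PBS (6 female, 6 male) and 9 had received HsTX1[R14A] (3 female, 6 male), a peptide derived from a scorpion toxin that blocks the potassium channel Kv1.3. Per the study's methods the peptide was injected under the skin at 1 mg/kg on alternate days for 8 weeks, from 4 to 6 months of age, and PBS was the vehicle. All groups were of the SAMP8 strain, and 1 library was made per mouse. Library totals ran from 14917174 to 47613792 counts, and the smallest count of any of the 10 genes was 500 (Camkk1 in PBS mouse 103). How far read sampling and the spread between mice each limited the precision was not tested.

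The libraries were not alike in the levels of regional markers or in RNA profile. Whether their tissue content differed was not tested. Gabra6, a defining gene of cerebellar granule neurons, was under 5 CPM (read counts relative to the size of the library, TMM-scaled) in 19 of 21 libraries, where its highest value was 3.55 CPM, although the study describes whole brain. It was 90.1 CPM in HsTX1[R14A] mouse 74 and 15.04 CPM in PBS mouse 73. Gabra6 is 1 of 10 cerebellar neuron markers described here, which did not all behave alike. Cbln3, Fat2 and Pcp2 were also highest in mouse 74. Calb1 (126 to 255 CPM) and Zic1 (21.5 to 165 CPM) were present in every library. The summed CPM of 9 markers of forebrain excitatory neurons ran from 342 to 1278 in PBS mice and from 886 to 1717 in HsTX1[R14A] mice, with the lowest value in PBS mouse 103. Libraries also differed in how level followed transcript length. For each gene, log2 CPM was taken as the difference from its mean over the 21 libraries. The slope of these differences on log2 length is called the length slope here. Its sign compares a library with the average of the 21 and does not give the dependence on length itself. The length slope ran from -0.38 to 0.15 in PBS mice (median -0.02) and from -0.14 to 0.23 in HsTX1[R14A] mice (median 0.15). It was most negative in PBS mice 103 and 90. Library names took 2 forms: 10 PBS and 5 HsTX1[R14A] libraries carried the more common one, and 2 and 4 the less common one.

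The comparison of the groups asks which brain transcripts differ after dosing with the Kv1.3 blocker. Among the 10 genes, 2 rose and 2 fell in HsTX1[R14A] mice. Camk2b and Camk2d were higher, Ppp3ca and Ppp3r1 were lower, and the other 6 did not pass the test, in edgeR's quasi-likelihood test with sex in the model and a Benjamini-Hochberg false discovery rate (FDR) of at most 0.05. The median log2 fold change over the 10 genes was 0.18, beside -0.01 over all genes tested. Of all 16303 genes, 5144 passed the same test (31.6%), 15.5% higher and 16.1% lower, so a count of 4 in 10 lies near the share of all genes. The fitted level was higher with HsTX1[R14A] for 6 of the 7 kinase genes (7 of 7 with RLE scaling, 5 with 1 surrogate variable and 3 with the length slope in the model, where Camk2a, Camk2g, Camk4 and Camkk2 were lower and Camk2b lay at 0.0004) and lower for all 3 calcineurin genes. In females fitted alone 4 of the 7 kinase genes were higher, and in males 7 of 7. All 3 calcineurin genes were lower in either sex. No gene of the 10 passed when the length slope was added to the model. None of the 16303 genes did either, with 1865 at an unadjusted p under 0.05 in edgeR.

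**Figure D1:**
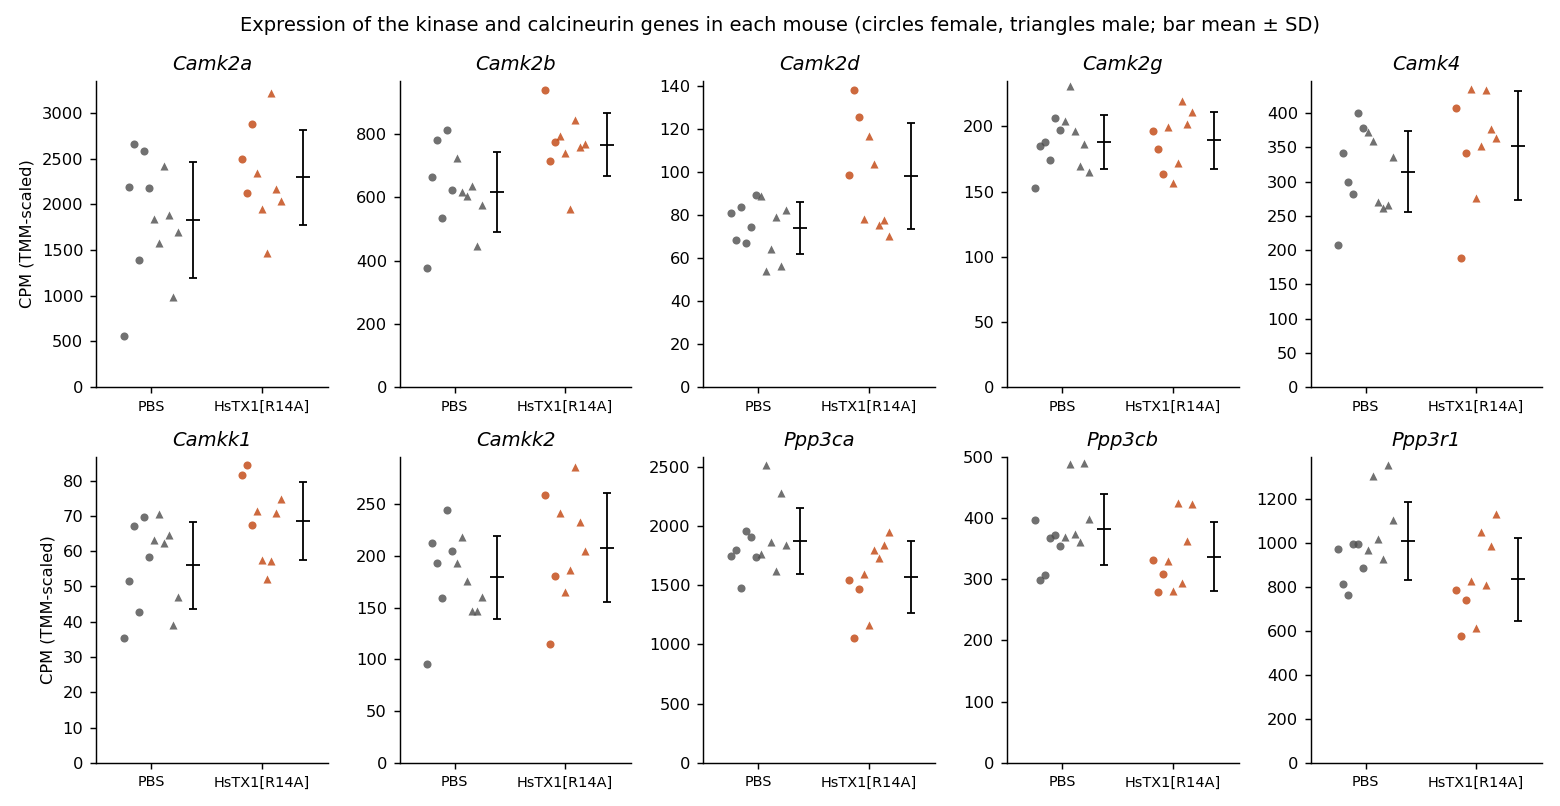
TMM-scaled CPM of each of the 10 genes (y axes, from 0) in the PBS (n = 12) and HsTX1[R14A] (n = 9) mice, with 1 point per mouse, circles for females and triangles for males, and the mean ± SD beside each group. The groups overlap for every gene; 5 of the 9 HsTX1[R14A] mice lie above the highest PBS mouse for Camk2d and for Camkk1, and 3 lie below the lowest PBS mouse for each calcineurin gene.

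Levels between genes were compared per kilobase of the longest annotated transcript (CPM/kb), since longer transcripts yield more reads. In PBS mice the catalytic gene Ppp3ca (394 ± 58.7 CPM/kb, SD, n = 12), the CaMKII alpha gene Camk2a (369 ± 128) and the regulatory gene Ppp3r1 (352 ± 61.4) stood highest. The order within these 3 was not settled by the spread, as Ppp3ca exceeded Camk2a in 6 of 12 PBS mice and Camk2a exceeded Ppp3r1 in 7 of 12. Camk2b (149.5 ± 30.6) and Camk4 (116 ± 21.6) followed, and in all 12 mice Ppp3r1 lay above Camk2b and Camk2b above Camk4. Camk4 exceeded Ppp3cb (99.6 ± 15.3 CPM/kb) in 10 of 12 mice. Camk2g (50.8 ± 5.69), Camkk2 (36.9 ± 8.30), Camkk1 (15.05 ± 3.32) and Camk2d (13.4 ± 2.17) were lowest, and the last pair kept its order in 8 of 12 mice. With the merged length of all annotated exons as divisor, Ppp3r1 stood first (312 CPM/kb), then Camk2a (245) and Ppp3ca (188), and Camk4 (96.6) lay above Camk2b (67.6) in all 12 mice, so the order of the top 3 and that of Camk2b and Camk4 depended on the length used.

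The make-up of CaMKII followed from these levels. In PBS mice, Camk2a held 61.6% ± 7.28 (SD, n = 12) of the summed CaMKII CPM/kb, Camk2b 26.5% ± 3.67, Camk2g 9.40% ± 2.91 and Camk2d 2.51% ± 1.06. In HsTX1[R14A] mice the shares were 64.0% ± 3.55, 26.2% ± 2.36, 7.28% ± 1.22 and 2.56% ± 0.85 (n = 9). Ppp3ca held 79.8% ± 1.33 of the 2 catalytic calcineurin genes in PBS mice and 78.7% ± 2.13 in HsTX1[R14A] mice. With the merged exon length as divisor the PBS shares were 69.4% ± 6.79 for Camk2a, 20.3% ± 3.38 for Camk2b, 9.27% ± 3.15 for Camk2g and 1.05% ± 0.49 for Camk2d. Between the 2 lengths, the share of Camk2a moved most in percentage points, and that of Camk2d most relative to its size. Each of the differences between groups with the longest transcript was smaller than the SD of the PBS mice. Camk2a had the widest spread of the 10 genes among PBS mice, with a coefficient of variation of 34.8%, and Camk2g the narrowest, at 11.2%.

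Camk2a, on chromosome 18, encodes the alpha subunit of forebrain excitatory neurons. It ran from 562 CPM through a median of 1864 to 2666 CPM in PBS mice, and from 1467 through 2164 to 3218 CPM in HsTX1[R14A] mice. All but 1 of the 9 HsTX1[R14A] mice lay above the PBS median, but the groups overlapped and 3 PBS mice, 103 lowest, made the low end. The log2 fold change was 0.35 ± 0.21 (SE, n = 12 and 9), with an edgeR FDR of 0.184. With the length slope in the model it was -0.26, and with 1 surrogate variable -0.03.

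Camk2b encodes the beta subunit, which binds actin and tethers the holoenzyme in spines, and lies on the minus strand of chromosome 11 from 5969644 to 6066362 (GRCm38). It ran from 377 through 621 to 814 CPM in PBS mice and from 565 through 768 to 939.9 CPM in HsTX1[R14A] mice. Of the 9 HsTX1[R14A] mice, 8 lay above the PBS median and 2 above every PBS mouse. Camk2b rose by a log2 fold change of 0.33 ± 0.12 (SE; 1.26-fold; edgeR FDR 0.0386). The log2 fold change was 0.30 in the 15 libraries of the more common name form and 0.16 in the 6 of the other (edgeR FDR 0.140 and 0.855), and 0.0004 with the length slope in the model. The call was lost on leaving out any 1 of PBS mice 73, 101, 90 and 91 or HsTX1[R14A] mice 98, 72, 74, 88, 81 and 89, with FDR from 0.0507 to 0.0853 and log2 fold changes from 0.28 to 0.34.

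Camk2d, chromosome 3 from 126596302 to 126846326 on the plus strand, encodes the delta subunit, the main CaMKII of heart muscle and a minor one in forebrain. It ran from 53.7 through 76.5 to 89.2 CPM in PBS mice and from 70.3 through 98.3 to 138 CPM in HsTX1[R14A] mice. The HsTX1[R14A] mice fell into a higher part, with 5 of 9 above every PBS mouse, and a part inside the PBS range, and 5 PBS mice lay below every HsTX1[R14A] mouse. Camk2d rose by a log2 fold change of 0.44 ± 0.11 (SE; 1.36-fold; edgeR FDR 0.0174), the largest of the 10 genes, and passed on leaving out any single mouse (FDR from 0.00784 to 0.0387). The change was 0.65 within the more common name form (edgeR FDR 0.0563) and 0.004 within the less common one (FDR 0.996). With the length slope in the model it was 0.35 (unadjusted p = 0.0145, edgeR FDR 0.342).

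Camk2g encodes the gamma subunit, which can carry calcium/calmodulin to the nucleus. It ran from 153 through 187 to 231 CPM in PBS mice and from 157 through 197 to 219.8 CPM in HsTX1[R14A] mice. Its log2 fold change was -0.003 ± 0.08 (SE; edgeR FDR 0.979), and 5 of 9 HsTX1[R14A] mice lay above the PBS median, so the groups were interleaved throughout.

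The cascade kinases had higher fitted means over both sexes together, but none passed the test. In females and males fitted alone, log2 fold changes were 0.52 and 0.15 for Camkk1, -0.003 and 0.34 for Camkk2, and -0.03 and 0.26 for Camk4. The treatment by sex interaction passed for none of them. Camkk1 ran from 35.5 through 60.3 to 70.5 CPM in PBS mice and from 52.0 through 70.8 to 84.3 CPM in HsTX1[R14A] mice. Its log2 fold change was 0.30 ± 0.13 (SE; edgeR FDR 0.0734), and it passed only without HsTX1[R14A] mouse 93 (0.34, FDR 0.0416). Camkk2, which also activates the energy sensor AMPK, ran from 95.1 through 184 to 245 CPM in PBS mice and from 115 through 205 to 286 CPM in HsTX1[R14A] mice, with a log2 fold change of 0.20 ± 0.16 (edgeR FDR 0.314). Camk4, on chromosome 18, encodes the nuclear kinase that phosphorylates CREB. It ran from 207 through 318 to 400.2 CPM in PBS mice and from 189 through 364 to 435 CPM in HsTX1[R14A] mice, with a log2 fold change of 0.15 ± 0.14 (edgeR FDR 0.406). Without HsTX1[R14A] mouse 98 the changes were 0.08 for Camk4 and 0.12 for Camkk2, and without mouse 71 they were 0.24 and 0.30, none passing. HsTX1[R14A] mouse 71 was the lowest treated mouse for Camk4 and Camkk2 and the highest for Camk2d and Camkk1.

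Ppp3ca encodes the alpha catalytic subunit of calcineurin, the main one in brain, and lies on chromosome 3 from 136670124 to 136937727 on the plus strand. It ran from 1474 through 1814 to 2509.9 CPM in PBS mice and from 1049 through 1590.4 to 1944 CPM in HsTX1[R14A] mice. Of the 9 HsTX1[R14A] mice, 7 lay below the PBS median and 3 below every PBS mouse, while 3 PBS mice lay above every HsTX1[R14A] mouse. Ppp3ca fell by 0.30 ± 0.10 on the log2 scale (SE; 0.814-fold; edgeR FDR 0.0357). The log2 fold change was -0.44 within the more common name form (FDR 0.0650), -0.09 within the less common one (FDR 0.903) and -0.15 with the length slope in the model (FDR 0.610). The call was lost on leaving out any 1 of PBS mice 73, 101 and 90 or HsTX1[R14A] mice 71, 72, 74, 88 and 81, with FDR from 0.0510 to 0.0793 and log2 fold changes from -0.31 to -0.25.

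Ppp3r1 encodes the calcineurin B subunit, which the catalytic subunits need for activity, and lies on chromosome 11 from 17159263 to 17200375 on the plus strand. It overlaps Wdr92 on the same strand, so reads in the shared part could have been assigned to either gene. It ran from 761 through 981 to 1352 CPM in PBS mice and from 577 through 809 to 1129.8 CPM in HsTX1[R14A] mice. Of the 9 HsTX1[R14A] mice, 6 lay below the PBS median, and 3 lay below every PBS mouse. Ppp3r1 fell by 0.33 ± 0.11 on the log2 scale (SE; 0.796-fold; edgeR FDR 0.0281). The log2 fold change was -0.45 within the more common name form (FDR 0.0642), -0.13 within the less common one (FDR 0.886) and -0.13 with the length slope in the model (FDR 0.641). Leaving out any 1 of PBS 90, HsTX1[R14A] 71 and HsTX1[R14A] 81 lost the call, with FDR from 0.050001 to 0.0658 and log2 fold changes from -0.31 to -0.29.

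Ppp3cb, the beta catalytic subunit, has an antisense partner, 1810062O18Rik, in the table, and because the labels and the methods name different library kits it is unsure whether reads of the pair were told apart by strand. It ran from 299 through 371 to 489.8 CPM in PBS mice and from 279.0 through 329.8 to 425 CPM in HsTX1[R14A] mice. Its log2 fold change was -0.21 ± 0.09 (SE; edgeR FDR 0.0696), with 7 of 9 HsTX1[R14A] mice below the PBS median. It passed without HsTX1[R14A] mouse 92 or 93 (-0.25, FDR from 0.0339 to 0.0438). HsTX1[R14A] mouse 71 was the lowest treated mouse for all 3 calcineurin genes.

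**Figure D2:**
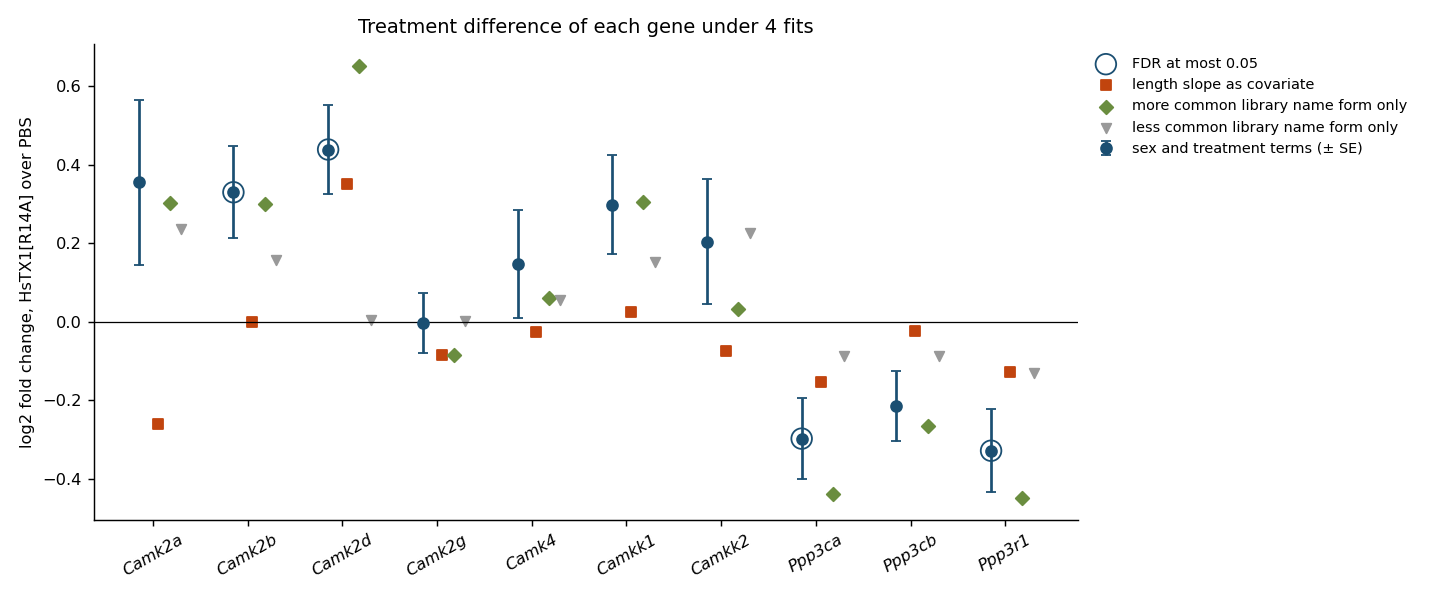
Treatment difference on the log2 scale, HsTX1[R14A] over PBS (y axis), for each gene (x axis) in the model with sex and treatment (circles with SE; ringed where the FDR is at most 0.05), with the length slope added (squares), and within the more common (diamonds, 15 libraries) and less common (triangles, 6 libraries) library name form. The 4 ringed genes are Camk2b, Camk2d, Ppp3ca and Ppp3r1, and with the length slope Camk2b lies at 0.0004 and Camk2d at 0.35.

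The upstream sequences of the called genes in RefSeq (GRCm38.p6) are shown for the 3 that have an entry, Camk2b, Camk2d and Ppp3r1. Of the 10 genes, 6 have an entry. Each sequence runs 5′ to 3′ on the gene's strand and ends at the base before the RefSeq start, except that for Ppp3r1 the last 35 bases, which lie in an exon annotated by GENCODE, are left out. The Camk2b and Camk2d windows lie inside the longer gene models of GENCODE but in none of their exons. Capitals mark the GC box, GGGCGG, and the CRE half-site, TGACG, both searched on both strands, and the last pair of GC boxes of Camk2b overlap.
Camk2b, chr11:6065749-6065998, minus strand: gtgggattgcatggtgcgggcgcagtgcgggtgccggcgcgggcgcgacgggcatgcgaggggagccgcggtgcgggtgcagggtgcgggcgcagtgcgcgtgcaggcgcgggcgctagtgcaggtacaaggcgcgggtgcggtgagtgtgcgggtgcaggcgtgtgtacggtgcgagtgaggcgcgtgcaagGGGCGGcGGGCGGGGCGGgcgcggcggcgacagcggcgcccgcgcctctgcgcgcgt
Camk2d, chr3:126596701-126596950, plus strand: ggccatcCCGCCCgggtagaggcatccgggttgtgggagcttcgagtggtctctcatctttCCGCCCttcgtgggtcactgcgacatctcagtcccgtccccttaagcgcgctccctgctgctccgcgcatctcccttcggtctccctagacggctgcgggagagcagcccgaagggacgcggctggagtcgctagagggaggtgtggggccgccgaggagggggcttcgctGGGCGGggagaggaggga
Ppp3r1, chr11:17159048-17159262, plus strand: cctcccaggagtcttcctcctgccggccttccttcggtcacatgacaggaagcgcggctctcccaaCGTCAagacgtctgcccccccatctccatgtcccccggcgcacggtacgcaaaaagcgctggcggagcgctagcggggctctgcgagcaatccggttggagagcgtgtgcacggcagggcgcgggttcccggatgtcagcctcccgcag
Camk2b held 3 GC boxes and no CRE half-site in its 250 bases, and Camk2d held 3 and none. Ppp3r1 held 1 CRE half-site, on the minus strand, and 4 GC boxes. All 4 boxes lie wholly in the 35 bases not shown, which GENCODE annotates as exon. The genes with an entry that are not shown did not pass for treatment. Camkk1 (log2 fold change 0.30) held 2 GC boxes and 1 CRE half-site. Camkk2 (0.20) held 1 GC box and Ppp3cb (-0.21) held 2, both without a CRE half-site. A link between these motifs and the direction of change was not tested. Of 32851 mouse promoters of the same 250 bases, 32.7% held a GC box and 17.8% a CRE half-site.

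The balance between kinase and phosphatase transcripts was measured within each library as the difference of log2 CPM, which cancels the scaling of the library. The log2 ratio of Camk2a to Ppp3ca ran from -1.64 through 0.14 to 0.86 in PBS mice and from -0.29 through 0.70 to 1.02 in HsTX1[R14A] mice. Of the 9 HsTX1[R14A] mice, 7 exceeded the PBS median, and the groups overlapped. The difference, adjusted for sex, was 0.73, with p = 0.0142 in a two-sided exact permutation test of treatment within sex over 77616 relabelings and 0.0427 after Benjamini-Hochberg adjustment over the 3 ratios tested. It was 0.84 within the more common library name form (adjusted exact permutation p = 0.0727) and 0.31 within the less common one, where 8 relabelings allow no p below 0.125. With the length slope in the model it was -0.11 (adjusted permutation p = 0.185). That p is not exact, because treatment was relabeled without regard to the length slope, which differed between the groups. Leaving out any 1 of 11 mice (PBS 73, 101, 90 and 91, and HsTX1[R14A] 98, 71, 72, 74, 88, 81 and 89) took the adjusted p above 0.05, to between 0.0515 and 0.0922, with differences from 0.62 to 0.75.

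The ratios within each enzyme differed less. The log2 ratio of Camk2a to Camk2b was 1.49 ± 0.38 (SD, n = 12) in PBS mice and 1.56 ± 0.21 (n = 9) in HsTX1[R14A] mice, a sex-adjusted difference of 0.08 (exact permutation p = 0.619, adjusted 0.619). With the length slope in the model the difference was -0.27 (adjusted permutation p = 0.0199). This p is likewise not exact, as the relabelings ignored the length slope, and it may be too small. The log2 ratio of Ppp3ca to Ppp3cb was 2.30 ± 0.12 in PBS mice and 2.21 ± 0.19 in HsTX1[R14A] mice, a difference of -0.09 (exact permutation p = 0.219, adjusted 0.328).

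**Figure D3:**
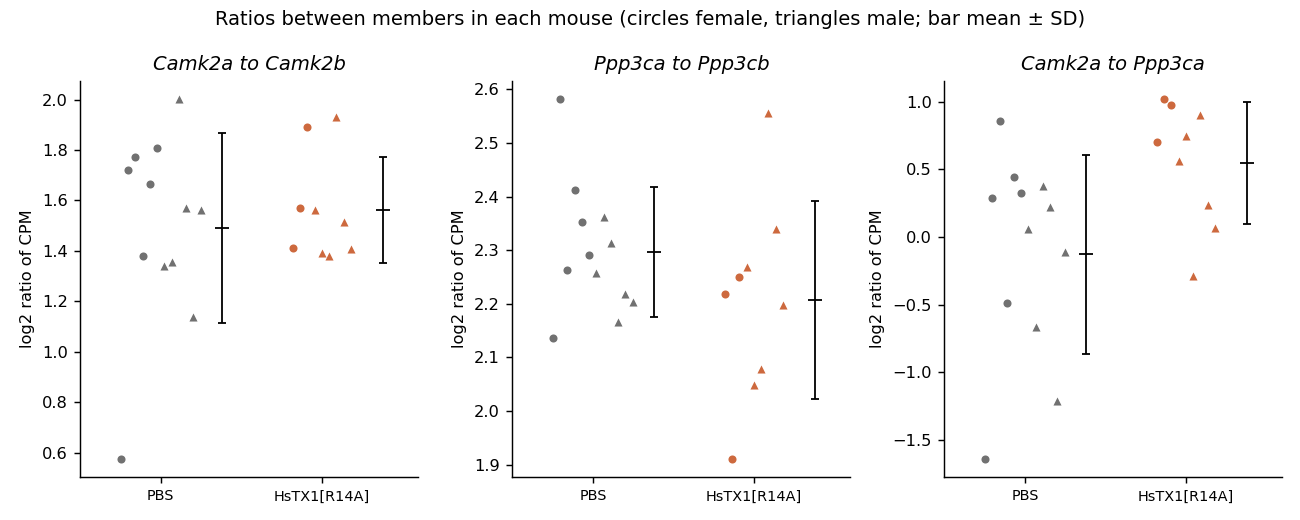
Log2 ratio of CPM between 3 pairs of genes (y axes, each on its own scale) in PBS (n = 12) and HsTX1[R14A] (n = 9) mice, with 1 point per mouse, circles for females, triangles for males, and the mean ± SD beside each group. For Camk2a to Ppp3ca, 7 of the 9 HsTX1[R14A] mice exceed the PBS median, and PBS mouse 103 is lowest, at -1.64.

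Within the PBS mice, where treatment plays no part, pairs within the kinase or the calcineurin genes accounted for all positive relations that passed. Of the 45 pairs of genes, 15 were positively and 2 negatively correlated at an adjusted p of at most 0.05 (Pearson's r of log2 CPM, 100000 permutations, n = 12). All 3 pairs of calcineurin genes were among the positive ones, as were 12 of the 21 kinase pairs, and none of the 21 pairs of a kinase with a calcineurin gene. Both negative pairs joined Camk2d to a calcineurin gene, Ppp3ca or Ppp3r1. By Spearman's rho, 9 pairs were positive and 1 negative at that threshold, with 7 kinase pairs and 2 of the 3 calcineurin pairs, as Ppp3ca with Ppp3cb did not pass (adjusted permutation p = 0.0819). The share of all gene pairs that would pass in these libraries was not counted, so these counts have no background beside them. Camk2d did not vary with the other kinases: none of its 6 kinase pairs passed (r from -0.37 to 0.26). Some pairs rested on the 2 mice farthest from the median, without which r went from 0.68 to 0.13 for Camk2a with Camk4 and from -0.68 to -0.16 for Camk2d with Ppp3r1. Ppp3cb and Ppp3r1 were closest, with r = 0.97 and Spearman's rho = 0.92 (permutation p = 1e-05, the smallest that these permutations can give, and 4e-05; adjusted 0.00045 and 0.0018), and r was 0.91 without the 2 mice farthest from the median. Camk2a and Camk2b followed, with r = 0.92 and rho = 0.83 (permutation p = 6e-05 and 0.00155, adjusted 0.00135 and 0.0174; r = 0.72 without the 2 farthest mice). Camk4 and Camkk2 had r = 0.90 and rho = 0.90 (permutation p = 0.00014 and 0.00017, adjusted 0.00157 and 0.00382; r = 0.78 without the 2 farthest). The most negative pair was Camk2d and Ppp3ca, with r = -0.83 and rho = -0.80 (permutation p = 0.00069 and 0.00292, adjusted 0.00444 and 0.0253; r = -0.53 without the 2 farthest). Over the 10 PBS mice with the more common name form these 4 values of r were 0.97, 0.95, 0.89 and -0.86.

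Some of the genes also followed the length slope of the library. That slope was computed over the tested genes with an annotated length, the 10 included. The share of all genes that follow it was not counted. Over PBS mice, Camk2a rose with the length slope with r = 0.93 and rho = 0.85 (permutation p = 3e-05 and 0.00069, adjusted over 10 genes 0.0003 and 0.00345, n = 12), and r was 0.85 without the 2 farthest mice and 0.93 within the more common name form. Camk2b had r = 0.91 and rho = 0.87 (permutation p = 9e-05 and 0.0006, adjusted 0.00045 and 0.00345), and r was 0.73 without the 2 farthest and 0.93 within that form. Ppp3cb fell with it, with r = -0.71 and rho = -0.72 (permutation p = 0.0105 and 0.0106, adjusted 0.021 and 0.0282; -0.70 without the 2 farthest, -0.73 within that form). Ppp3r1 had r = -0.67 and rho = -0.71 (permutation p = 0.0181 and 0.0113, adjusted 0.0302 and 0.0282; -0.80 without the 2 farthest, -0.69 within that form). Camkk1, Camkk2 and Camk4 had r of 0.77, 0.71 and 0.62 with adjusted Pearson p of 0.0118, 0.021 and 0.0448 by permutation, but r fell to 0.40, 0.27 and 0.15 without the 2 farthest mice, so these relations rested on those mice. Camk2d (r = 0.49), Camk2g (r = 0.36) and Ppp3ca (r = -0.57) did not pass, with r of 0.69, -0.03 and -0.80 without the 2 farthest mice. In the 9 HsTX1[R14A] mice, r was 0.77 for Camk2a, 0.80 for Camk2b, -0.83 for Ppp3cb and -0.72 for Ppp3r1, and -0.14 for Camk4 and 0.03 for Camkk2, given as descriptions. The length slope enters each library's values for all genes and was higher in HsTX1[R14A] mice. Its part in the differences between the groups was not tested beyond the model that holds it as a term.

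**Figure D4:**
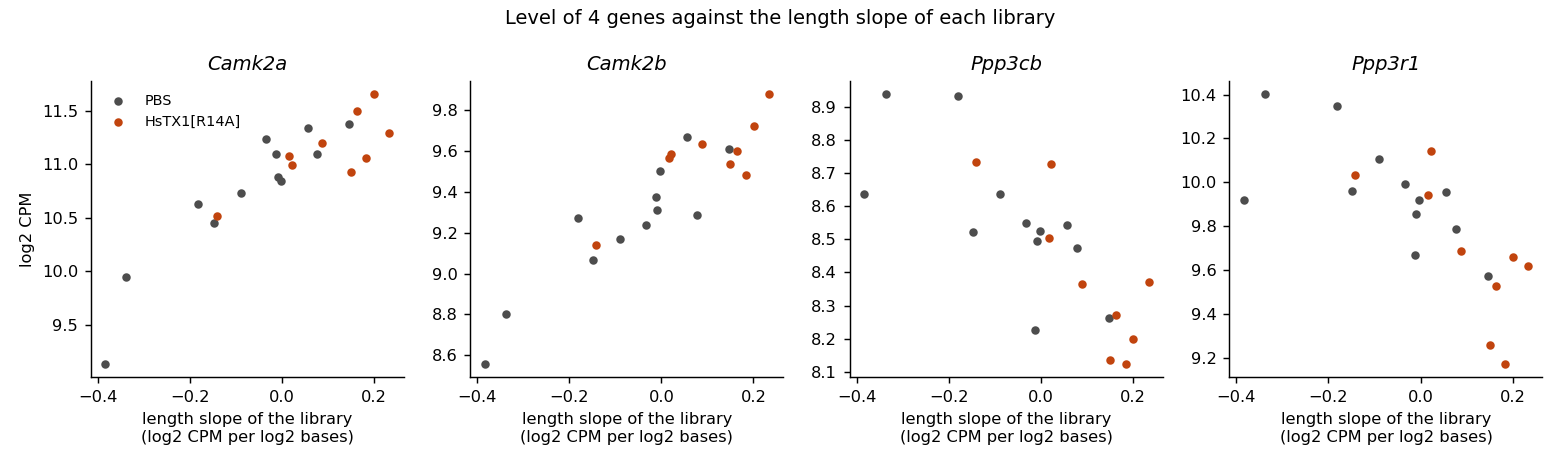
Log2 CPM of Camk2a, Camk2b, Ppp3cb and Ppp3r1 (y axes) against the length slope of each library (x axis), with 1 point per mouse in grey for PBS and orange for HsTX1[R14A]. The length slope is the change in log2 CPM, relative to each gene's mean over the libraries, per log2 of transcript length. The kinase genes rise along the slope (r = 0.93 and 0.91 in PBS mice) and the calcineurin genes fall (r = -0.71 and -0.67), and the HsTX1[R14A] mice lie mostly at the right.

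The sexes did not differ at the threshold for any of the 10 genes. In the same model 9 of all 16303 genes passed for sex (0.0552%), and 1765 had an unadjusted p under 0.05 in edgeR. Of the 10 genes, none passed in edgeR, limma/voom or DESeq2, and 4 had an unadjusted p under 0.05. These 4 were Ppp3r1 (log2 fold change of males over females 0.33 ± 0.11, SE, edgeR FDR 0.446), Ppp3cb (0.23 ± 0.09), Ppp3ca (0.22 ± 0.10) and Camk2d (-0.27 ± 0.11), named after their values were seen. In PBS mice Ppp3r1 averaged 903 ± 99.6 CPM in females and 1112 ± 178 CPM in males (SD, n = 6 each).

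No treatment by sex interaction passed for any gene (0.0% of 16303), and none of the 10 genes had an unadjusted interaction p under 0.05 in edgeR, limma/voom or DESeq2; over all genes edgeR gave 270 such p-values. Camk2d averaged 77.2 ± 8.84 CPM in PBS females (n = 6) and 121 ± 20.3 CPM in HsTX1[R14A] females (n = 3), against 70.6 ± 14.6 and 86.9 ± 18.7 CPM in males (n = 6 each). Its log2 fold change was 0.64 ± 0.14 in females and 0.30 ± 0.16 in males fitted alone (edgeR FDR 0.244 and 0.214), and the interaction was -0.34 ± 0.23 (unadjusted p = 0.148). Within either sex fitted alone none of the 10 genes passed, and 0 of 16209 genes in females and 0 of 16102 in males did, with 3312 and 4440 at an unadjusted p under 0.05 in edgeR.

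The genes whose level followed each of the 10 most closely were taken among 10452 other genes averaging 3 or more on the log2 CPM scale, by Pearson's r over the 21 mice. Camk2a lay closest to Camta2 (r = 0.98), a calmodulin-binding transcription activator, and Snph (0.98), and Camk2b to Tmem132a (0.98) and Slc8a2 (0.98), a sodium/calcium exchanger. Camk2d lay closest to Plxnc1 (0.93) and Marcksl1 (0.93), Camk2g to Pamr1 (0.91) and Actr1b (0.90), Camk4 to Cdk19 (0.92) and Ngef (0.89), Camkk1 to Klhl21 (0.91) and Lrig2 (0.91), and Camkk2 to Lrrc8b (0.95) and Atf6 (0.94). Ppp3ca lay closest to Gtdc1 (0.96) and 3110035E14Rik (0.96), Ppp3cb to Ube2k (0.96), a ubiquitin-conjugating enzyme, and Ppp2cb (0.96), a catalytic subunit of the phosphatase PP2A, and Ppp3r1 to Ccz1 (0.96) and Bzw1 (0.96). All of these values share the libraries and their length slopes and are descriptions.

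Upstream of the enzymes, 6 genes for calmodulin or proteins that bind it were described, of which 2 fell and none rose. Their median log2 fold change was -0.24, beside -0.01 for all genes, and 31.6% of all genes passed in either direction. This list and those below were chosen with earlier results of these data known. Their counts beside the shares of all genes are therefore descriptions and not tests of the lists. Pcp4, a small calmodulin-binding protein that speeds calcium exchange, ran from 336 through 514 to 1000.02 CPM in PBS mice and from 189 through 379 to 563 CPM in HsTX1[R14A] mice. The groups overlapped, and Pcp4 fell by 0.59 ± 0.18 on the log2 scale (SE; edgeR FDR 0.0237). Calm2, which encodes calmodulin, ran from 1109.9 through 1596 to 2252 CPM in PBS mice and from 927 through 1322 to 1945 CPM in HsTX1[R14A] mice, and fell by 0.34 ± 0.13 (edgeR FDR 0.0448). Calm3 (-0.06 ± 0.07) and Nrgn (-0.07 ± 0.17) did not pass.

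Of 7 other calmodulin-dependent kinases, 4 rose and none fell (median 0.24), beside 15.5% of all genes higher and 16.1% lower. Camkv, a kinase-like protein of synaptic vesicles without activity, ran from 266 through 312 to 364 CPM in PBS mice and from 338 through 353 to 448 CPM in HsTX1[R14A] mice, with a log2 fold change of 0.24 ± 0.06 (SE; edgeR FDR 0.0176). Camk1g, a CaMKI family kinase and so a target of the CaMKKs, rose by 0.52 ± 0.14 (FDR 0.0188). The others, named after their values were seen, were Dapk1 (0.45 ± 0.13) and Camk1d (0.24 ± 0.09).

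Of 9 inhibitors and phosphatases that act on these kinases or their substrates, 1 rose and 3 fell (median -0.11), beside the same shares of all genes (15.5% and 16.1%). Camk2n1 encodes a direct inhibitor of active CaMKII. It ran from 1947 through 3231 to 5754 CPM in PBS mice and from 998 through 2073 to 3553 CPM in HsTX1[R14A] mice. The groups overlapped, and Camk2n1 fell by 0.78 ± 0.20 on the log2 scale (SE; edgeR FDR 0.0174). Ppp1r1a, an inhibitor of protein phosphatase 1, fell by 0.45 ± 0.12 (FDR 0.0181), and Ppm1f, a phosphatase that dephosphorylates CaMKII, rose by 0.28 ± 0.07 (FDR 0.0170). Ppp1cb, a catalytic subunit of protein phosphatase 1 named after its values were seen, fell by 0.30 ± 0.09.

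Of 10 other calcineurin subunits and regulators, 1 fell and none rose (median 0.09; 31.6% of all genes passed in either direction). This was Ppia, cyclophilin A, the protein that carries cyclosporin to calcineurin, which fell by 0.42 ± 0.14 on the log2 scale (SE; edgeR FDR 0.0297). Rcan1 (-0.06 ± 0.07, FDR 0.529), a feedback inhibitor of calcineurin, did not pass. Of 17 downstream effectors, 5 rose and none fell (median 0.30), beside 15.5% of all genes higher and 31.6% passing in either direction. Hdac4, a histone deacetylase that CaMK signalling moves out of the nucleus, ran from 20.4 through 34.4 to 49.1 CPM in PBS mice and from 34.1 through 51.3 to 60.6 CPM in HsTX1[R14A] mice, with a log2 fold change of 0.52 ± 0.12 (SE; edgeR FDR 0.0153). Dnm1, the endocytic GTPase that calcineurin dephosphorylates, rose by 0.79 ± 0.24 (FDR 0.0228). Syn1 (0.99 ± 0.32), Mef2d (0.71 ± 0.22) and Prkaa2 (0.26 ± 0.09) also rose and were named after their values were seen. The NFAT genes Nfatc1, Nfatc2, Nfatc3 and Nfatc4 did not pass (log2 fold changes 0.48, 0.42, 0.23 and -0.13). Nfatc4, the only one lower, was barely detected, with a mean log2 CPM of -0.07.

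**Figure D5:**
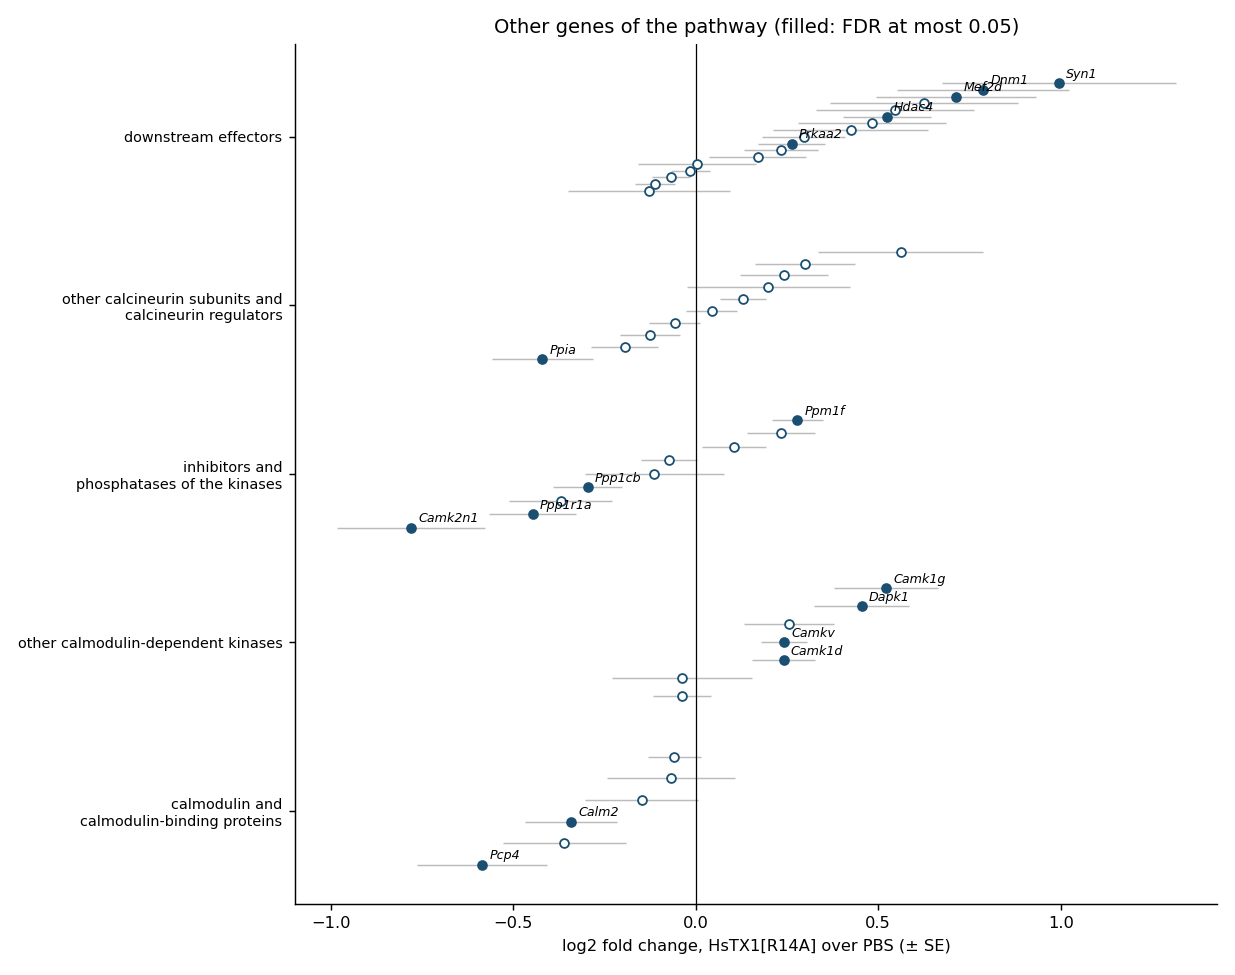
Treatment difference on the log2 scale with its SE (x axis, HsTX1[R14A] over PBS) for the genes of 5 lists around the kinases and calcineurin (y axis, genes sorted within each list), filled where the FDR is at most 0.05 and then named. Camk2n1 lies farthest left, at -0.78, and Syn1 farthest right, at 0.99.

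Some markers of other cells passed for treatment in the same libraries, in the model with sex and treatment. With the length slope in that model, or within either library name form alone, no gene passed, these markers included. Beside 15.5% of all genes higher and 16.1% lower, of 8 oligodendrocyte markers 4 fell, of 8 astrocyte markers 4 fell and of 8 microglia markers 3 fell, while 2 of 8 neuron markers rose and none fell. Of 9 forebrain excitatory neuron markers and 8 striatal neuron markers none passed in edgeR, and 1 of 10 cerebellar neuron markers rose. The summed CPM of the oligodendrocyte markers ran from 4528 to 6887 in PBS mice and from 3415 to 5047 in HsTX1[R14A] mice, that of the microglia markers from 400.1 to 586 and from 336 to 507, that of the astrocyte markers from 3331 to 4986 and from 3339 to 5038, and that of the neuron markers from 5757 to 8240.4 and from 6491 to 9264.0. Of 7 endothelial markers 1 rose, and none of 8 choroid plexus or 5 red blood cell markers passed. Their part in the values of the 10 genes was not tested, and in these bulk libraries fewer cells of a type cannot be told apart from less RNA per cell. Without the 2 libraries highest in cerebellar markers (HsTX1[R14A] mouse 74 and PBS mouse 73), 1 of the 10 genes passed, Camk2d (0.44, edgeR FDR 0.0458; background 9.5%), and without the 2 of most negative length slope (PBS mice 103 and 90) again Camk2d (0.42, FDR 0.0288; background 17.7%).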

How the data were processed

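The deposited values are estimated counts per gene, not normalized: per the study's methods and the labels, the authors aligned reads to GRCm38 with STAR and quantified genes with Salmon in nf-core/rnaseq 3.2. The table also holds the authors' fold changes and p-values and 53 per-sample columns (37 of CPM, 16 of counts) of no labelled mouse, none used here. Counts were rounded, filtered with filterByExpr by treatment and sex, normalized by TMM and fitted on sex and treatment in edgeR 4.0.16 (glmQLFit, glmQLFTest, R 4.3.3), adjusting over all 16303 genes; the code was tested on simulated data. SE is the log2 fold change over the square root of F. For log2 CPM the prior count was 2. Lengths come from GENCODE M21 on GRCm38. Limma 3.58.1 (voom), DESeq2 1.42.0, sva 3.50.0 and other settings were alternatives. The 10 genes and the lists were chosen with earlier results of these data known, and 1 gene of a list is not reported here. Named genes are the 10, the 2 most alike genes of each, and, per list, the 2 of smallest p in each direction among those passing. Others (Gabra6, Cbln3, Fat2, Pcp2, Calb1, Zic1, Calm3, Nrgn, Rcan1, the NFAT genes and those so marked) were named after their values were seen. The mice are separate animals by their numbers. Depth ran from 14917174 to 47613792 counts.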

Additional observations from a re-analysis of the deposited data

How the results depend on the processing

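Of the 10 genes, 4 passed for treatment with DESeq2, limma/voom, RLE scaling or no low-count filter as well (the same genes), and 3 with library name form as covariate (Camk2b lost). The count was 1 without the sex term (Camk2d), and 0 within either library name form alone, with 1 surrogate variable, and with the length slope as covariate. It was 1 without the 2 libraries highest in cerebellar markers and 1 without the 2 of most negative length slope, both chosen after seeing the data. Leaving out single mice gave 1 to 6: 1 without PBS 90 or HsTX1[R14A] 81, 2 without PBS 73 or 101 or HsTX1[R14A] 71, 72, 74 or 88, and 6 without HsTX1[R14A] 93. The cause was not tested. Over all genes, edgeR called 1999 with the name form and 1104 with the surrogate variable, 0 within the more and less common name form (5797 and 532 at an unadjusted p under 0.05) and 0 with the length slope (1865). Sex and interaction gave 0 of the 10 genes under all alternatives run.

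The log2 ratio of Camk2a to Ppp3ca was 0.84 and 0.31 in the more and less common name form, 0.67 without the cerebellar-marker libraries and 0.48 without those of most negative slope, none passing, and -0.11 with the length slope; single mice gave 0.60 to 0.81. Camk2a to Camk2b was -0.27 with the length slope and -0.039 without the most negative slopes (single mice 0.005 to 0.14), and Ppp3ca to Ppp3cb 0.0099 in the less common form (single mice -0.13 to -0.04). With the length slope Camk2a was -0.26, Camk4 -0.026 and Camkk2 -0.075, and with 1 surrogate variable Camk2a was -0.026. Camk2g, at -0.003, turned to 0.0016 with limma/voom, 0.0019 with DESeq2, 0.0024 with RLE scaling, 0.0098 without the sex term and 0.0027 in the less common form, and ran from -0.031 to 0.031 without single mice. No paired analysis was possible because the replicate numbers name single mice and no number occurs in both groups.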
